A study of Mus musculus with 5 samples.

Results

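The genes described here are Trp53, which encodes the tumour suppressor p53, and 9 genes that p53 is known to switch on, followed in mouse glioma cells whose genotype label says that they lack p53. The 9 are Cdkn1a, Mdm2, Ccng1, Zmat3, Phlda3, Aen, Plk2, Btg2 and Trp53inp1. They were chosen by gene symbol, and all 10 were found among the 29495 genes of the count tables and had enough reads to be tested. All cells had the genotype p53-/-;NF1-/-;tdTomato+/-, came from a tumour model on a background that mixed CD-1 with C57BL/6, and grew beside olfactory bulb neurons taken from C57BL/6 pups. After culture, the red fluorescent tdTomato was used to sort the glioma cells away from those neurons. The 2 groups were sequenced as polyadenylated RNA. The control group held 2 libraries (replicates 1 and 2) without added factor, and the IGF-1 group held 3 (replicates 3, 4 and 5) after an overnight incubation with insulin-like growth factor 1 (IGF-1) at 20 ng/mL. The labels do not name the p53 allele, the promoter that drove its loss, the age of the tumour-bearing mice, or how many tumours or cultures stand behind the libraries. Per the labels' protocols neurons were plated with insulin and serum, and the media that followed kept serum and added B27.

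p53 is a transcription factor that is stabilised by DNA damage and other stresses. It binds DNA as a tetramer, on paired copies of a short consensus, and switches on genes that stop the cell cycle, repair DNA, start cell death, and limit p53 itself through Mdm2. In glioma the pathway is commonly disabled. Many of its targets have further inputs, from growth factor signals, other stress pathways and general promoter factors, and can therefore be expressed without p53.

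Promoters are shown of the 2 genes that later passed the test, Cdkn1a and Aen, and of 2 that did not, Mdm2 and Ccng1. They let a reader see where single copies that match the p53 consensus lie. Pairs were not searched for, so a paired site with an inexact copy is not marked as one. RefSeq windows from 250 bases before to 50 bases after a start site were matched for 8 of the 10 genes, with 2 windows each for Cdkn1a and Aen, in build GRCm38.p6. No entry was matched for Zmat3 and Trp53inp1. Capitals mark matches to the 10-base p53 decamer consensus on either strand, or, in the second Cdkn1a window, which holds none, GC boxes (GGGCGG on either strand), where SP1-type factors bind. The first Cdkn1a window is at chr17:29090729-29091028 on the + strand and the second at chr17:29093519-29093818 on the + strand, 2790 bases further on. The Aen window is at chr7:78895677-78895976 (+), that of Mdm2 at chr10:117710709-117711008 (-) and that of Ccng1 at chr11:40755237-40755536 (-). Each sequence runs 5′ to 3′ towards the gene.
Cdkn1a upstream start: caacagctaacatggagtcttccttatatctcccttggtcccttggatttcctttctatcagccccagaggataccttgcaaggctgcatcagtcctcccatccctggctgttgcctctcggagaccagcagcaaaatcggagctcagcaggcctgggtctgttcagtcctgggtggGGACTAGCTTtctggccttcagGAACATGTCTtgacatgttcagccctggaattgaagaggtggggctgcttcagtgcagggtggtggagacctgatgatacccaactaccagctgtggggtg
Cdkn1a downstream start: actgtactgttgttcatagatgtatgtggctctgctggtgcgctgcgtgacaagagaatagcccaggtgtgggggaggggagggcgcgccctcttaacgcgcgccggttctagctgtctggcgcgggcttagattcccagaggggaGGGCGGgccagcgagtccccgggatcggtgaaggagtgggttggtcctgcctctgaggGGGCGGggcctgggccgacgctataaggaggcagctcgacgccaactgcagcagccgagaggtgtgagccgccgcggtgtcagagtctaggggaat
Aen: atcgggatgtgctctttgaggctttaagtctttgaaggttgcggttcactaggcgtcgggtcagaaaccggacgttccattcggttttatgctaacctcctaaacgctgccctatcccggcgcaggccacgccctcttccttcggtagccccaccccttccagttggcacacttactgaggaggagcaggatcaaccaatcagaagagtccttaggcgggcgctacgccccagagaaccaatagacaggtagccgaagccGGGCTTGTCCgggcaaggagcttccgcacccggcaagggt
Mdm2: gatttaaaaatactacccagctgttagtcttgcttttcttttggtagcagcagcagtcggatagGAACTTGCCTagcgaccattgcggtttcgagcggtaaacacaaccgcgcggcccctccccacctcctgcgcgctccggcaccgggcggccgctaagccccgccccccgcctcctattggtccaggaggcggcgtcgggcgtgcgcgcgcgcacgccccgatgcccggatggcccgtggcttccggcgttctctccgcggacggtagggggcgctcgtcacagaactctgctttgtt
Ccng1: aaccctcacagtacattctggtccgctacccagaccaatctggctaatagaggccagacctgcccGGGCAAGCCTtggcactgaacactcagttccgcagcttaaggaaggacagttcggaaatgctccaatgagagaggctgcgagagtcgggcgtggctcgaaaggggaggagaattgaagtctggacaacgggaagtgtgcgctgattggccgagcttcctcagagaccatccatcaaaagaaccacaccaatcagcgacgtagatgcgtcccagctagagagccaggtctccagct

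In the upstream Cdkn1a window the decamers start 73 and 51 bases before the start site, and a further copy of the core CATG, past the second of them, starts 38 bases before it. The second Aen window overlaps the first by 169 bases and holds the same decamer. Of the 10 windows 6 held a decamer match, against 8.36% of all 32851 promoter windows in the table. The windows of Trp53, Mdm2, Ccng1, Aen and Cdkn1a supplied them, and those of Btg2, Phlda3 and Plk2 held none. These genes are on the list because p53 is known to act on them, so the share is a description and no test. GC boxes were in 6 of the 10 windows, against 35.7% of all windows, and CCAAT boxes (CCAAT) in 6, against 37.4%. A CArG box, where the serum response factor binds, was in 0 of the 10 windows (1.63% of all), as was the EGR site GCGTGGGCG (0.612%). The cyclic AMP response element TGACGTCA lay in the windows of Btg2 and Plk2 (1.79% of all). A match says that the letters are there and nothing about a bound factor.

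Libraries held 16944315 to 20144181 counts. IGF-1 replicate 5 lay apart from the other libraries, at 33.2 on a first principal component (35.2% of the variance) where they lay between -19.2 and 1.96. Many results, though not all, are therefore given with and without it. The 6 markers of oligodendrocyte progenitor-type glioma cells were read in every library, Pdgfra, Olig2, Olig1, Sox10, Cspg4 and Ptprz1 each averaging 267 to 877 CPM (a gene's counts divided by its library's total, on a fixed scale). The 9 neuronal markers found summed to 8.60 to 8.85 CPM in the controls and 9.20 to 15.5 CPM with IGF-1, or at most 9.74 CPM without IGF-1 replicate 5. Syt1 and Gad1 were the 2 that averaged over 1 CPM, Rbfox3 had 0 to 1 count per library and Slc17a6 0 to 3. The 4 microglial markers summed to 0.531 to 0.923 and 0.636 to 0.771 CPM, and the 3 endothelial markers to 1.18 to 1.21 and 0.685 to 1.48 CPM. The 5 astrocyte markers (Gfap, Aqp4, Aldh1l1, Slc1a2 and Slc1a3) summed to 215 to 216 and 195 to 210 CPM. Most of that sum was Slc1a3 and Slc1a2, which averaged 117 and 80.6 CPM. Gfap averaged 8.47, Aldh1l1 0.933 and Aqp4 0.601 CPM. The 5 markers of fibroblasts and pericytes summed to 9.09 to 10.7 and 9.20 to 12.9 CPM. Of markers of maturing oligodendrocytes, Mbp averaged 83.1 CPM, while Mog had 4 to 7 counts per library and Mag 0 to 3. The part of such cells in the results was not tested. Values below are CPM after TMM scaling, and differences are on the log2 scale, IGF-1 minus control.

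Trp53 transcripts were abundant in every library of these cells. It was read at 88.8 and 86.6 CPM in the controls and at 83.1, 82.2 and 82.8 CPM in IGF-1 replicates 3, 4 and 5, from 1468 to 1692 counts per library. The IGF-1 libraries all lay below both controls, by a narrow margin. The fitted difference of -0.08 (SE 0.06) did not pass the quasi-likelihood F-test of edgeR (p adjusted by Benjamini-Hochberg = 0.609). In sorted bulk RNA such as this, fewer cells of a kind and less RNA per cell cannot be told apart. Counts are summed over the whole gene, and the labels do not say which part of it is missing, so they neither show nor contradict the loss of p53 protein. A processed pseudogene, Trp53-ps, is annotated in GRCm38 but has no row of that name in the deposited counts. The handling of reads that fit both is not stated in the sources used here. Nf1, the other gene that the label gives as lost, was read at 126 to 133 CPM in all 5 libraries.

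**Figure D1:**
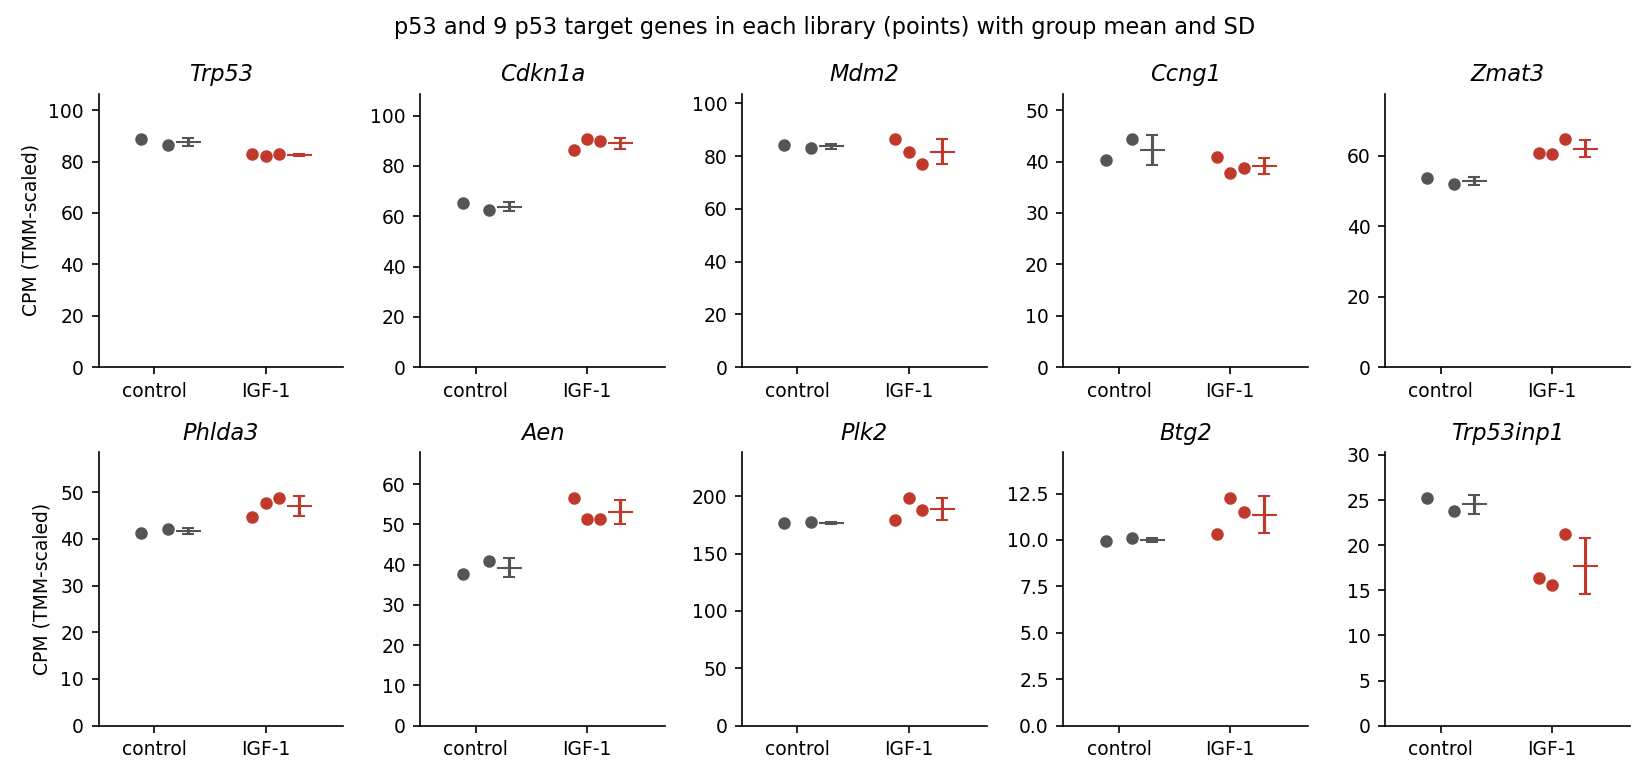
CPM of p53 and the 9 target genes (y axes from 0, scaled per gene) in 2 control libraries (grey) and 3 IGF-1 libraries (red, replicates 3, 4 and 5 from left to right), with the group mean and SD beside the points. Cdkn1a and Aen lie well above the controls in all 3 IGF-1 libraries, and Trp53inp1 lies below them, with replicate 5 nearest to the controls.

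Of the 10 genes, Cdkn1a had the smallest adjusted p and the largest rise. It encodes p21, an inhibitor of cyclin-dependent kinases that carries out much of the arrest ordered by p53. Cdkn1a was read at 65.1 and 62.6 CPM in the controls and at 86.4, 90.6 and 89.9 CPM with IGF-1. All 3 IGF-1 libraries exceeded both controls by over 20 CPM, and they differed among themselves by less than 5. It rose from 63.9 ± 1.75 (SD, n = 2) to 89.0 ± 2.29 CPM (SD, n = 3), 1.39-fold, or 0.48 on the log2 scale with an SE of 0.07. The adjusted p by edgeR was 0.0109, and 9.38e-10 without IGF-1 replicate 5, when the difference was 0.47. Per library, the log2 differences from the mean of the controls were 0.44, 0.51 and 0.49 in replicates 3, 4 and 5, so replicate 5, which stood apart over all genes, lay between the other 2 here. The call was lost, with the size kept at 0.45 to 0.51, without control replicate 1 (adjusted p = 0.289), control replicate 2 (0.36) or IGF-1 replicate 4 (0.0588). In the GRCm38 annotation 273 of the 3553 exon bases of Cdkn1a are also covered by AC167363.2, a transcript model on the other strand. The deposited counts hold no row of that name, and the sources used here do not say whether counting used strand.

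Aen was the other gene of the 10 that was called higher. It encodes an exonuclease that p53 induces and that digests DNA during apoptosis. Aen was read at 37.6 and 40.9 CPM in the controls and at 56.6, 51.2 and 51.4 CPM with IGF-1. The groups were over 10 CPM apart at their nearest values. The means were 39.3 ± 2.31 (SD, n = 2) and 53.1 ± 3.08 CPM (SD, n = 3), a 1.35-fold rise, or 0.43 (SE 0.08, adjusted p = 0.0442 by edgeR). Without IGF-1 replicate 5 it was 0.46 (adjusted p = 2.21e-06). Aen lay close to the threshold: it was not called without control replicate 1 (0.38, adjusted p = 0.567), control replicate 2 (0.50, 0.408), IGF-1 replicate 3 (0.39, 0.161) or IGF-1 replicate 4 (0.46, 0.111), nor by limma-voom (0.0545).

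Of the 10 genes, 2 were called higher by edgeR and 0 lower. Over all 15919 genes tested 1.02% were called, 0.685% higher and 0.339% lower. Before adjustment, p was under 0.05 by edgeR for 4 of the 10 with higher values (Cdkn1a, Aen, Zmat3 and Phlda3), against 7.1% of all genes, and for 1 with lower values (Trp53inp1), against 5.57%. DESeq2 likewise called 2 of the 10 higher and 0 lower. Without IGF-1 replicate 5 edgeR called 3 higher and 1 lower, where 9.14% of all genes tested were called, 5.49% higher and 3.65% lower. The groups did not overlap in CPM for 8 of the 10, with 6 higher and 2 lower. Among all genes tested that held for 33.1%, with 16.2% higher and 16.9% lower. The median of the 10 log2 differences was 0.13, and that of all genes tested was -0.01.

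Trp53inp1 was the one member with a marked difference in the other direction. Its product, TP53INP1, helps p53 to induce cell death and takes part in autophagy. It was read at 25.3 and 23.8 CPM in the controls and at 16.4, 15.6 and 21.3 CPM with IGF-1. Replicates 3 and 4 lay far under the controls and replicate 5 lay between the groups. With all libraries the difference was -0.47 (SE 0.14) and missed the threshold (adjusted p = 0.181, 0.00662 unadjusted). Without replicate 5 Trp53inp1 fell by 0.62 (SE 0.10) with an adjusted p of 3.69e-06. It was also called lower by limma-voom with sample quality weights, which gave replicate 5 a weight of 0.292 and the other libraries 1.34 to 1.39 (-0.58, adjusted p = 0.00236), and with no filter on low counts (-0.46, adjusted p = 0.0118).

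Zmat3, an RNA-binding zinc finger protein that carries out part of tumour suppression by p53, was read at 53.6 and 52.0 CPM in the controls and at 60.9, 60.5 and 64.7 CPM with IGF-1. The groups did not overlap. The difference was 0.23 (SE 0.07), short of the threshold with all libraries (adjusted p = 0.197). Zmat3 passed without IGF-1 replicate 5 (0.20, SE 0.07, adjusted p = 0.0383), although it was replicate 5 that held its highest level. Phlda3, which competes with the kinase AKT for membrane lipid and so restrains the pathway that IGF-1 activates, was read at 41.3 and 42.1 CPM in the controls and at 44.7, 47.7 and 48.8 CPM with IGF-1. All IGF-1 libraries were again above the controls, by a difference of 0.17 (SE 0.08, adjusted p = 0.385), and Phlda3 did not pass without replicate 5 either (0.15, adjusted p = 0.235).

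The 2 members of the negative feedback on p53 did not pass the test. Mdm2, the ubiquitin ligase that degrades p53, was read at 84.3 and 83.0 CPM in the controls and at 86.4, 81.4 and 77.2 CPM with IGF-1. The control values lay inside the range of the IGF-1 values. Its difference was -0.04 (SE 0.07, adjusted p = 0.865) and turned to 0.0037 without replicate 5. Ccng1, which encodes cyclin G1, a partner of phosphatase 2A that acts on MDM2, was read at 40.3 and 44.4 CPM in the controls and at 40.9, 37.9 and 38.8 CPM with IGF-1, with overlapping groups (-0.11, SE 0.08, adjusted p = 0.62).

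Plk2 and Btg2 are p53 targets that growth factors also induce as early genes. Plk2, a polo-like kinase of centriole duplication, was read at 176 and 177 CPM in the controls and at 179, 199 and 188 CPM with IGF-1. The lowest IGF-1 library was only just above the controls, and the difference of 0.09 (SE 0.06) did not pass (adjusted p = 0.593). Btg2, an antiproliferative partner of the mRNA deadenylation machinery, was at 9.93 and 10.1 CPM in the controls and at 10.3, 12.3 and 11.5 CPM with IGF-1. It had the fewest counts of the 10 genes, 171 to 235 per library, and its difference of 0.18 had an SE of 0.13 (adjusted p = 0.605).

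**Figure D2:**
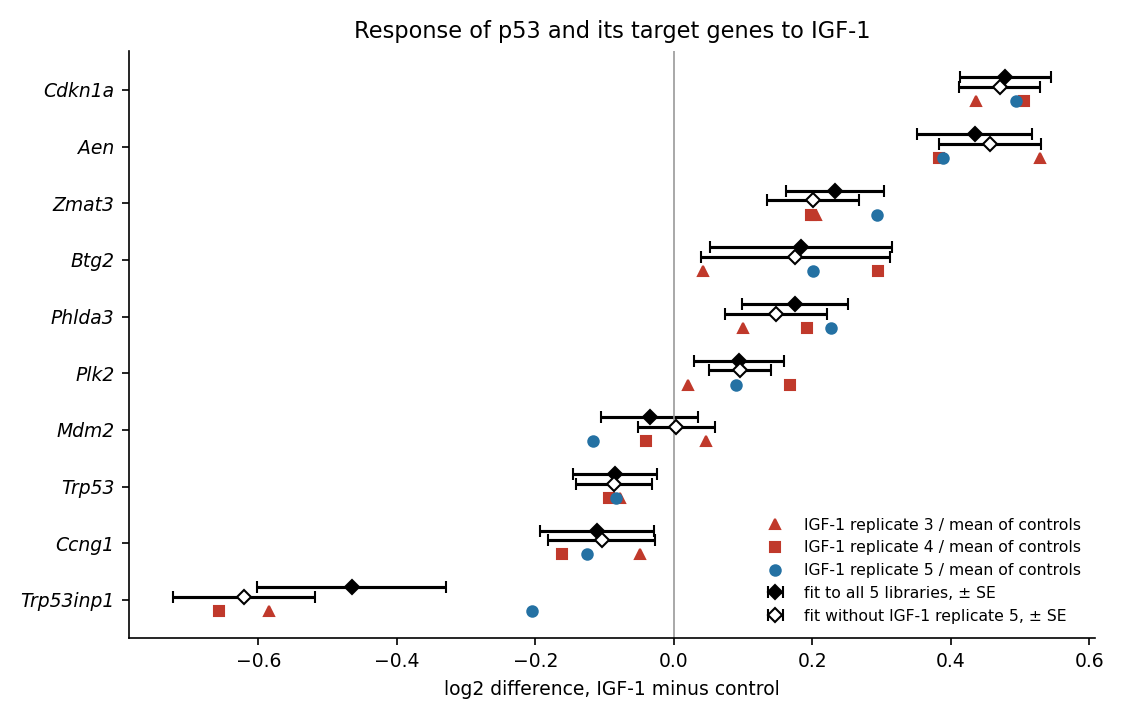
Log2 difference between IGF-1 and control for each gene (x axis), as fitted by edgeR to all 5 libraries (filled diamonds, ± SE) and without IGF-1 replicate 5 (open diamonds, ± SE), and for each IGF-1 library against the mean of the controls (red triangles, replicate 3; red squares, replicate 4; blue circles, replicate 5). For Trp53inp1 the blue circle is at -0.20, while replicates 3 and 4 are at -0.58 and -0.66.

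Levels can be set against each other only per length. Divided by the length of the principal GENCODE transcript, the controls held 63.2 CPM per kilobase of Plk2, 49.5 of Trp53, 30.7 of Cdkn1a, 29.1 of Phlda3, 27.0 of Mdm2, 12.1 of Ccng1, 7.92 of Aen, 6.77 of Zmat3, 4.54 of Trp53inp1 and 3.65 of Btg2. The 2 control values of neighbours in this order did not overlap. With IGF-1, Cdkn1a came to 42.8 CPM per kilobase, near the 46.7 of Trp53. Aen, at 10.3 to 11.4, then overlapped Ccng1, at 10.8 to 11.7, and Trp53inp1, at 2.88 to 3.94, overlapped Btg2, at 3.76 to 4.48. The lengths come from another build and assume that 1 transcript carries the reads.

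Relatives of these genes from the same families did not all go with them. Of 24 relatives 18 were tested, with a median of -0.05. Unadjusted, 4 were higher and 4 lower, against 7.1% and 5.57% of all genes tested. Without IGF-1 replicate 5, 3 of the 18 were called higher and 3 lower, where 5.49% and 3.65% of all genes tested were called. With all libraries 0 were called higher and 1 lower after adjustment, against 0.685% and 0.339% of all genes tested. The 1 was Ccng2, cyclin G2, a growth-inhibiting cyclin that FOXO factors induce: it was read at 47.6 and 44.5 CPM in the controls and at 15.9, 18.3 and 18.8 CPM with IGF-1 (-1.38, SE 0.10, adjusted p = 4.42e-04), beside the -0.11 of Ccng1. The genes of the p53 relatives p63 and p73 were barely read: Trp63 had 0 to 2 counts per library and Trp73 1 to 12, and neither was tested.

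Cdkn1b, which encodes p27, another inhibitor of the p21 family, was at 116 and 119 CPM in the controls and 102, 97.9 and 114 CPM with IGF-1. Its difference of -0.16 did not pass (adjusted p = 0.401), but without IGF-1 replicate 5 Cdkn1b fell by 0.23 (adjusted p = 6.93e-04), where Cdkn1a rose. Cdkn1c, of the same family, had 8 to 32 counts per library (-0.19, adjusted p = 0.92, or -1.06 without replicate 5, adjusted p = 0.259). Mdm4, the partner of MDM2, was at 127 ± 1.31 and 123 ± 0.753 CPM (-0.05, adjusted p = 0.767).

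In the polo-like kinase family, Plk3, a stress-linked kinase and itself a p53 target, was at 14.5 and 13.5 CPM in the controls and 17.8, 23.1 and 19.0 CPM with IGF-1. The groups did not overlap, and Plk3 was called higher without replicate 5 (0.55, adjusted p = 2.67e-04) but not with it (0.51, adjusted p = 0.125). The mitotic kinase gene Plk1 (-0.01, adjusted p = 0.972) and the centriole kinase gene Plk4 (0.08, adjusted p = 0.652) were not called. Plk5 had 1 to 6 counts.

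Of the BTG and TOB antiproliferative family, Btg1 was at 180 and 186 CPM in the controls and at 136, 141 and 175 CPM with IGF-1. As with Trp53inp1, replicate 5 was the one near the controls, and Btg1 fell by 0.40 without it (adjusted p = 3.67e-11), against -0.28 with all libraries (adjusted p = 0.269). Btg3 was at 0.51 (adjusted p = 0.269), Tob1 at -0.25 (adjusted p = 0.285) and Tob2 at 0.08 (adjusted p = 0.729). Btg4 had 1 to 3 counts.

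Phlda1, a relative of Phlda3, was at 103 and 103 CPM in the controls and 129, 127 and 116 CPM with IGF-1 (0.26, adjusted p = 0.125). It was called higher without replicate 5 (0.31, adjusted p = 2.11e-06). Phlda2 had 1 to 10 counts. Of the exonuclease relatives of Aen, Isg20l2 was at 0.18 (adjusted p = 0.374), or 0.20 without replicate 5 (adjusted p = 0.0295), and Isg20 at 0.66 from 14 to 32 counts (adjusted p = 0.482). Zmat1 (-0.09), Zmat2 (-0.20) and Zmat5 (-0.17) lay below 0 where Zmat3 lay above, and none of the 3 was called (adjusted p = 0.793, 0.364 and 0.636), while Zmat4 had 1 to 5 counts. Trp53inp2, the autophagy-linked relative of Trp53inp1, was at 40.7 ± 3.61 and 39.4 ± 3.90 CPM (-0.04, adjusted p = 0.888).

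Other known p53 targets showed no common direction. Of 41 on 4 lists 37 were tested, and 16 lay above 0 and 21 below, with a median of -0.03. Unadjusted, 3 were higher and 4 lower by edgeR, against 7.1% and 5.57% of all genes tested. After adjustment 1 was called higher and 0 lower by edgeR and by DESeq2. The 1 was Tigar, whose product lowers fructose-2,6-bisphosphate and so slows glycolysis. Tigar was read at 14.1 and 15.2 CPM in the controls and at 20.1, 21.3 and 23.3 CPM with IGF-1, with every IGF-1 library above both controls. It rose by 0.56 (SE 0.11) at the edge of the threshold (adjusted p = 0.0495). Without IGF-1 replicate 5 the adjusted p was 5.14e-04 for 0.50, and the call was lost when any 1 of the other libraries was left out (adjusted p from 0.115 to 0.546), with total counts (0.0604) and by limma-voom (0.0668). Without replicate 5, 36 of the 41 were tested, and 4 were called higher (Tigar, Plk3, Gtse1 and Sesn2) and 1 lower (Bbc3). Over all genes tested in that setting 5.49% were called higher and 3.65% lower.

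Of 8 tested targets of cell death 0 were called (0 higher and 2 lower unadjusted), and 6 lay below 0, with a median of -0.07. Those with the most CPM were Ei24 (-0.07, adjusted p = 0.697) and Apaf1, the scaffold gene of the apoptosome (38.6 and 38.9 CPM in the controls against 37.2, 38.6 and 40.2 CPM, adjusted p = 0.992). Bax and Bbc3 were chosen after their values were seen. Bax, the pore-forming death effector, was at 40.3 ± 0.473 and 34.5 ± 2.71 CPM (-0.23, adjusted p = 0.327). Bbc3, the gene of the death inducer PUMA, was at 14.2 and 14.7 CPM in the controls and 11.2, 10.2 and 11.5 CPM with IGF-1 (-0.40, adjusted p = 0.187), and fell by 0.43 without replicate 5 (adjusted p = 0.0157). Perp, Tnfrsf10b and Eda2r were too scarce to be tested.

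Of 11 targets of arrest and DNA repair 0 were called (2 higher and 1 lower unadjusted; median -0.03), with Gtse1, whose product holds p53 down in G2, at 0.24 (adjusted p = 0.247), or 0.27 without replicate 5 (adjusted p = 0.00625), and the phosphatase gene Ppm1d at 0.08 (adjusted p = 0.706). Of 12 of metabolism and stress Tigar alone was called (median 0.01). Without replicate 5 Sesn2, the gene of the stress protein sestrin 2, was called too (0.32, adjusted p = 0.00185, against 0.12 and 0.806 with all libraries). Of 6 with other roles 0 were called, also unadjusted (median -0.03). Those with the most CPM were Rps27l, at 52.9 ± 1.99 and 47.6 ± 14.6 CPM, and Blcap (-0.01, adjusted p = 0.985). Rps27l turned from -0.16 to 0.08 without replicate 5.

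**Figure D3:**
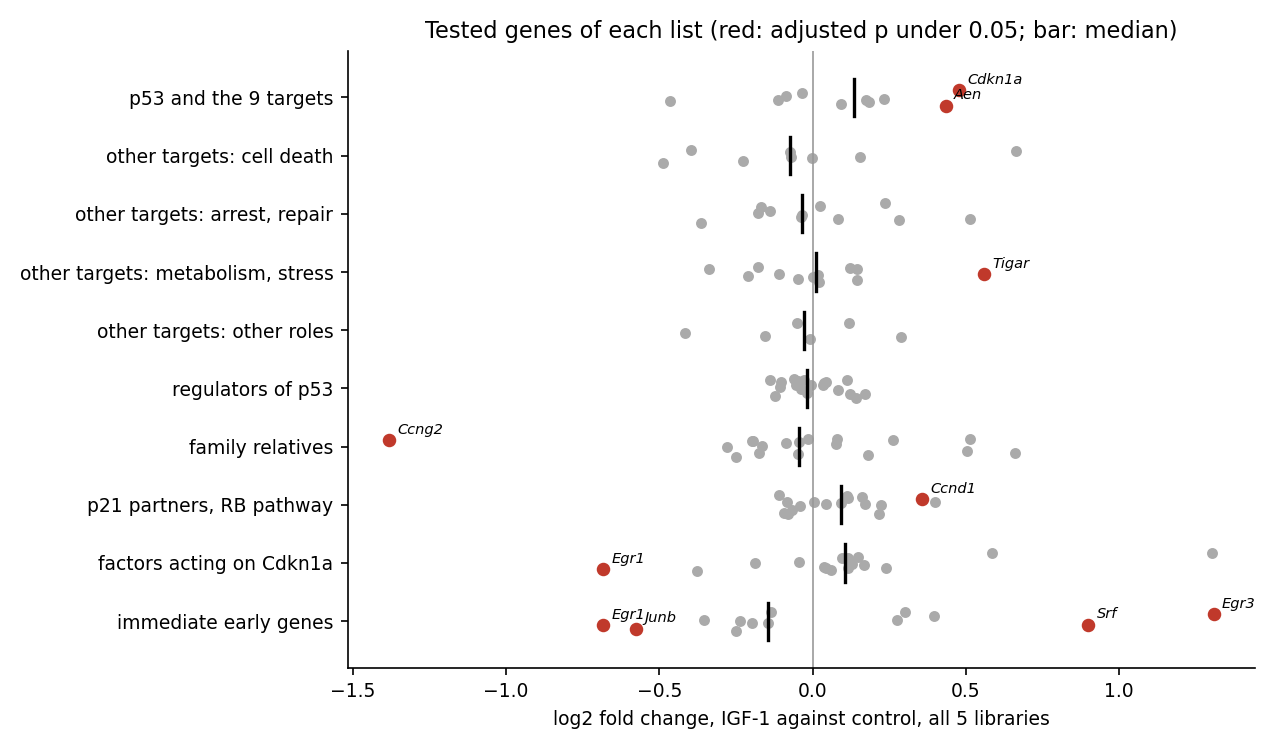
Log2 difference between IGF-1 and control (x axis) for each tested gene of 10 lists, one row per list, fitted to all 5 libraries; red points passed an adjusted p of 0.05 and are named, and the black bar is the list's median. The other target lists and the regulators of p53 scatter about 0, and the median of p53 and its 9 targets is 0.13.

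No regulator of p53 passed the test with all 5 libraries. Of 19 tested 0 were called by edgeR and by DESeq2 (1 higher and 0 lower unadjusted by edgeR), with log2 differences from -0.14 to 0.17 and a median of -0.02. Those read most were Huwe1, a ubiquitin ligase of p53 (881 ± 18.4 against 905 ± 16.0 CPM, 0.04, adjusted p = 0.824), and Rpl5, a ribosomal protein that holds MDM2 in check (784 ± 5.77 against 730 ± 96.3 CPM, -0.10, adjusted p = 0.699). The difference of Rpl5 was -8.49e-04 without replicate 5. Without replicate 5, 1 of the 19 was called higher, where 5.49% of all genes tested were. The 1 was Usp7, whose product removes ubiquitin from p53 and MDM2 (0.18, adjusted p = 0.00717, against 0.17 and 0.294 with all libraries). Of 17 cyclins, kinases and RB pathway genes on which p21 acts 1 was called higher, Ccnd1, and 0 lower (median 0.09). Over all genes tested 0.685% were called higher and 0.339% lower. Cyclin D1 is both a growth signal and a binding partner of p21. Its gene was read at 1141 and 1135 CPM in the controls and at 1400, 1429 and 1545 CPM with IGF-1, and like Cdkn1a it was above both controls in all 3 (0.36, adjusted p = 0.0385). The call of Ccnd1 was lost when any 1 library other than replicate 5 was left out (adjusted p from 0.124 to 0.597). Without replicate 5 E2f4, an E2F factor of the RB pathway, was called higher as well (0.25, adjusted p = 0.00268). In that setting 2 of the 17 were called higher and 0 lower, against 5.49% and 3.65% of all genes tested. Sesn2, Usp7 and E2f4 were named after their values were seen.

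Among 17 transcription factors other than p53 that are known to act on Cdkn1a, 16 were tested. DESeq2 called 0 higher and 2 lower, against 191 and 89 of all 15919 genes tested. By edgeR 5 were higher and 2 lower unadjusted, against 7.1% and 5.57% of all genes tested. After adjustment 0 were called higher and 1 lower, against 0.685% and 0.339%. Without replicate 5 there were 4 higher and 3 lower, where 5.49% and 3.65% of all genes tested were called. The 1 was Egr1 (-0.68, adjusted p = 0.0067), read at 328 and 338 CPM in the controls and 208, 229 and 184 CPM with IGF-1. Egr1 is also 1 of 13 tested immediate early genes. Without replicate 5, 5 of the 13 were called higher and 5 lower, against 5.49% and 3.65% of all genes tested. With all libraries 0.685% of all genes tested were called higher and 0.339% lower. Of the 13, 2 were then called higher, Egr3 (1.31) and Srf (0.90), and 2 lower, Egr1 and Junb (-0.57). Without either control in turn none of these 4 calls was kept (adjusted p from 0.0733 to 0.511), and that of Junb was also lost without IGF-1 replicate 3 (0.127). Plk2 and Btg2, at 0.09 and 0.18, lay between the early genes called higher and those called lower.

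The genes whose pattern over the 5 libraries lay nearest to that of Cdkn1a were Dusp7, Smg8, S1pr2 and Kdm6b. Nearness was the Euclidean distance in centred log2 CPM among 9485 genes of at least 10 CPM, and the distances were 0.0522, 0.0757, 0.0811 and 0.0812. Dusp7, a phosphatase gene of the ERK pathway, was read at 24.1 and 23.9 CPM in the controls and at 33.3, 35.2 and 34.5 CPM with IGF-1 (0.52). Kdm6b, a histone H3 demethylase gene, was at 87.9 and 87.6 CPM and at 123, 128 and 120 CPM (0.50). S1pr2, a sphingosine phosphate receptor gene, was at 0.49, and Smg8, of nonsense-mediated decay, at 0.43. They were picked for this likeness, into which the difference between the groups enters, so their values are a description.

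**Figure D4:**
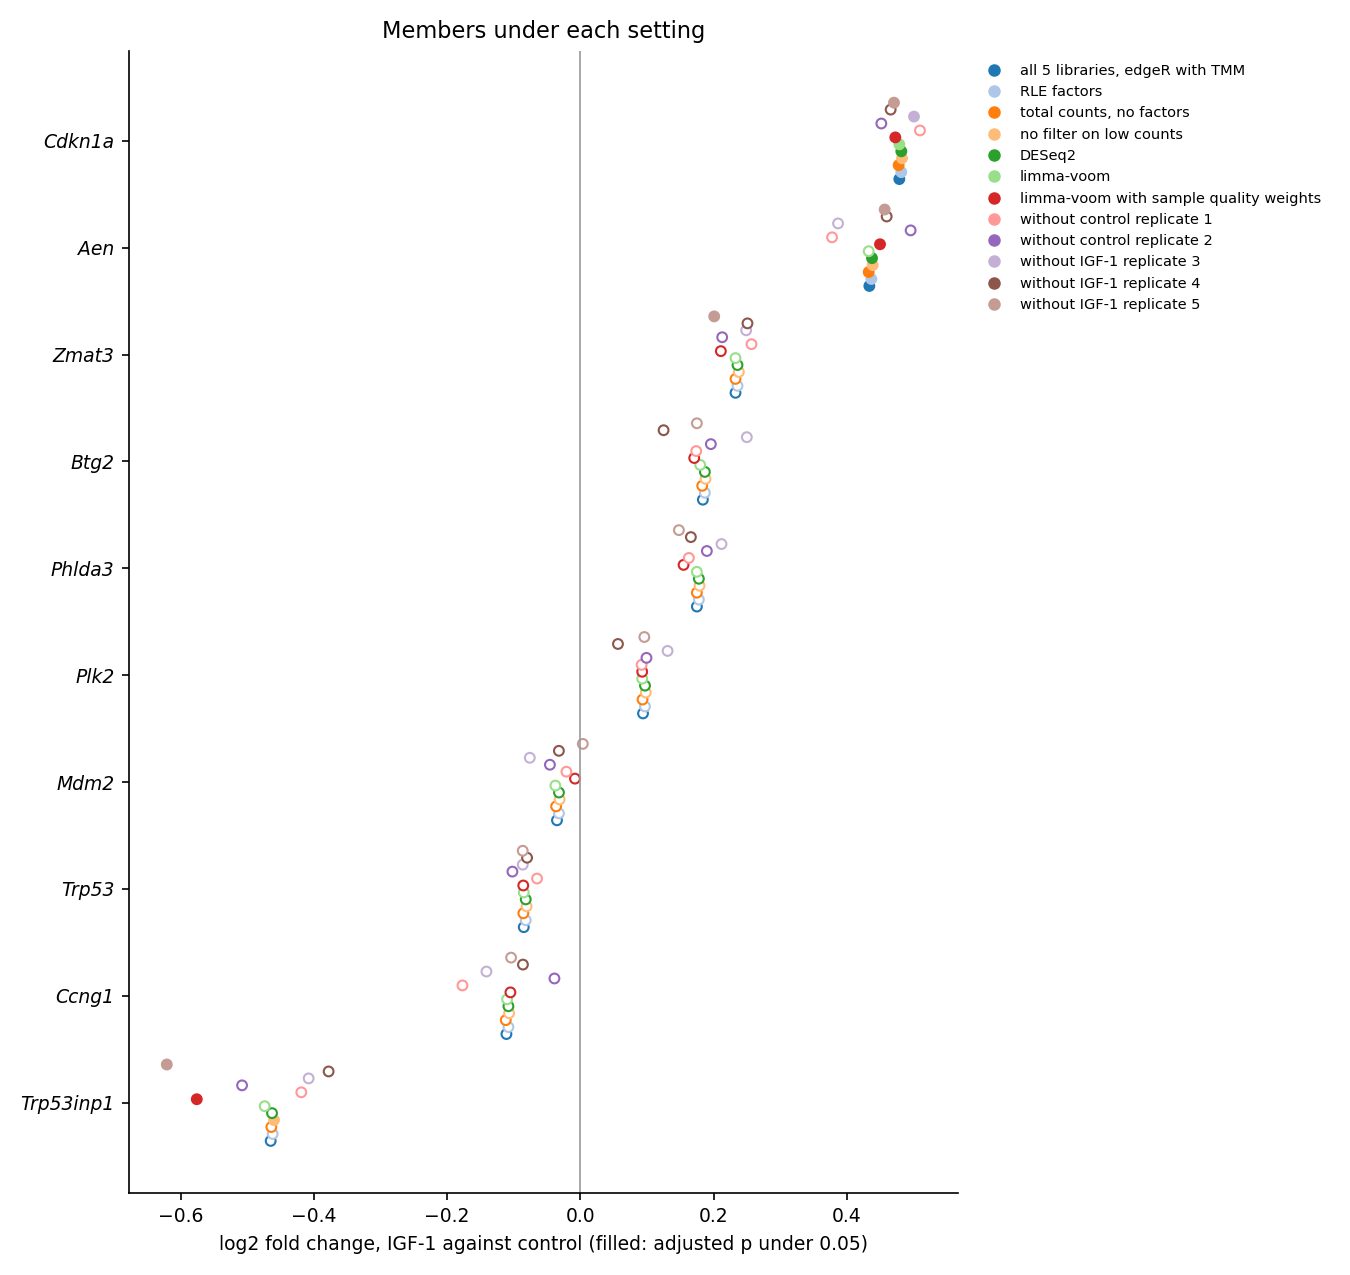
Log2 fold change of each gene (x axis) under the analysis of all 5 libraries and the 11 alternatives (colours), filled where the adjusted p was under 0.05. Cdkn1a stays between 0.45 and 0.51 and Aen between 0.38 and 0.50 while their calls come and go, and Trp53inp1 ranges from -0.62 to -0.38.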

How the data were processed

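The authors deposited 1 table of raw counts per library, with whole numbers of reads per gene symbol. The submitters' processing notes list featureCounts 2.0.1, STAR 2.7.9a, cutadapt 3.4 and DESeq2 1.28.1 with build GRCm39, and settings and annotation are not given in the sources used here. Groups were read from the titles, whose replicate numbers are not shared between groups, and no batch is labelled.

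Genes were kept by filterByExpr (minimum count 10, minimum total 15), which left 15919, scaled by TMM and tested with edgeR 4.0.16 (R 4.3.3) by its two-sided quasi-likelihood F-test, with Benjamini-Hochberg adjustment over all genes tested and a threshold of 0.05. The SE is the log2 fold change divided by the square root of F. Total counts of 16944315 to 20144181 set the precision. Libraries of a group differed by more than sampling noise (chi-square per degree of freedom 2.29 to 13.5), and each was kept as 1 sample. Nothing says that they are separate cultures, and p-values then measure the spread between these libraries alone, which may be technical.

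The members, the gene lists, the rule for named genes and the alternatives (RLE factors, total counts, no filter, DESeq2 1.42.0, limma 3.58.1 voom without and with quality weights, each library left out) were chosen with earlier results of these data known. Named were all members, their relatives, the up to 4 called genes of each other list with the smallest adjusted p or its 2 most abundant, and the 4 genes nearest to Cdkn1a. With 1 control left out, the lone control is taken to vary as the IGF-1 libraries do. Lengths and overlaps came from GENCODE M21 (GRCm38) and promoters from RefSeq (GRCm38.p6). The markers Th, Cx3cr1 and Cldn5 were not analysed here, and the summed level of the oligodendrocyte markers is not reported here.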

Additional observations from a re-analysis of the deposited data

How the results depend on the processing

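Library scaling did not change the 2 calls among p53 and its targets, nor did DESeq2 or the absence of a filter on low counts. Called higher among the 10 were 2, against 1 by limma-voom and 0 to 3 with each library left out. Called lower were 0, against 1 with no filter, 1 with sample quality weights and 0 to 1 with each library left out. Of the other p53 targets 1 was called higher, against 0 with total counts, 2 with no filter, 0 by limma-voom, 3 with quality weights and 0 to 4 with each library left out. Called lower were 0, against 1 with quality weights and 0 to 1 with each library left out. Over all genes 109 were higher and 54 lower, against 385 and 221 with no filter, 191 and 89 by DESeq2, 480 and 331 with quality weights, and 0 to 855 and 2 to 569 with each library left out. The low counts came with a control left out and the high ones without IGF-1 replicate 5. Of 561 values of 51 named genes, 477 kept direction and side of the threshold, 42 lost the call, 24 gained it and 18 turned sign, and none of the 18 was past the threshold. With each library left out, Mdm2 ranged from -0.0759 to 0.0037, Rps27l from -0.314 to 0.0806, Blcap from -0.0825 to 0.0758, Cdkn1c from -1.06 to 0.401, Zmat1 from -0.17 to 0.00407, Plk1 from -0.0981 to 0.0988, Trp53inp2 from -0.131 to 0.0522, Apaf1 from -0.0324 to 0.0256 and Sesn2 from -0.0243 to 0.317. With no filter Apaf1 turned to 0.0013, and with quality weights Blcap turned to 0.0125 and Plk1 to 0.0623. The causes were not tested. No paired analysis was possible because the groups share no replicate numbers. The calls of Cdkn1a, Aen and Tigar were each lost without 1 or another single library, while that of Ccng2 was kept with each left out. Cdkn1c (8 to 32 per library) had an SE of 0.60 and Isg20 (14 to 32) one of 0.36.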
